A study of Mus musculus with 24 samples.

Results

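Within the group of mice with nerve injury and the Gfp vector, 3 of the 6 nucleus accumbens libraries carried more interferon-induced RNA than the other 3. These 6 libraries, of 24 in the series, had the same surgery and the same vector. SNI Gfp libraries 3, 4 and 6 were selected on measured levels of interferon genes such as Ifit1 and Oasl2, and libraries 1, 2 and 5 were those with low levels. The numbers are the replicate numbers of the labels. Because measured values made the split, every gene in these 6 libraries is described library by library, with no test, and the only tests come from the 18 libraries that the split did not use.

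Bulk RNA was sequenced from punches of the nucleus accumbens, a part of the ventral striatum in which GABAergic medium spiny neurons predominate. The SNI Gfp mice had a spared nerve injury (SNI) made by the tibial variant of the operation on the left sciatic nerve, a common way to model chronic neuropathic pain, and received AAV8-hSyn-Egfp in the accumbens of both hemispheres. The Sham Gfp mice had the nerve exposed but not injured and received the same vector, the SNI Mef2c mice had the injury and AAV8-hSyn-Mef2c-Egfp, and the Sham Mef2c mice had the sham operation and the Mef2c vector. Each group has 6 libraries, every mouse behind them had surgery and an intracranial injection of virus, and the hSyn promoter drives the transgene mainly in neurons. The mice were C57BL/6J or DBA/2J animals 8 to 9 weeks old, and the labels do not give the strain or sex behind a library, nor say that libraries came from separate mice. P-values below therefore measure the spread between libraries, part of which may be technical.

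Type I interferons are secreted proteins that cells release on sensing viral or misplaced nucleic acid. They act through a receptor shared by nearly all cells and a complex of transcription factors that includes IRF9 and binds the interferon-stimulated response element (ISRE) of effector genes such as Ifit1 and Isg15. Interferon gamma, made by T cells and natural killer cells, acts through the gamma-activated site (GAS) and is known for inducing immunity-related GTPases, guanylate-binding proteins and, through the coactivator CIITA, MHC class II genes. In brain tissue, microglia and astrocytes respond to both kinds.

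Promoter sequences of 5 genes are shown because these genes stand for the 3 kinds of target described below, interferon effectors, GTPases and class II genes. The sequences are the 250 bases before the gene start in RefSeq (GRCm38.p6), read 5′ to 3′ on the gene's strand, and capitals mark matches to the ISRE letters GAAANNGAAA or the GAS letters TTCNNNGAA on either strand.
Ifit1 (chr19:34640639-34640888, plus strand): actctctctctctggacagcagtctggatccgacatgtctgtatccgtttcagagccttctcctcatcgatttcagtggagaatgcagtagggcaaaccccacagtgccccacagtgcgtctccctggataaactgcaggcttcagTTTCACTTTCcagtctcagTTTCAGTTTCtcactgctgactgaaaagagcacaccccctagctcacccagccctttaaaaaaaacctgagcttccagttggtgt
Isg15 (chr4:156200819-156201068, minus strand): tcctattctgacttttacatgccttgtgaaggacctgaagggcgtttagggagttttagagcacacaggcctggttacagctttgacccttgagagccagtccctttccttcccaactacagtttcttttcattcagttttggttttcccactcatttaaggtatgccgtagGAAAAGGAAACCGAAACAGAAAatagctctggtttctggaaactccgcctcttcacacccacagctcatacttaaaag
Igtp (chr11:58199306-58199555, plus strand): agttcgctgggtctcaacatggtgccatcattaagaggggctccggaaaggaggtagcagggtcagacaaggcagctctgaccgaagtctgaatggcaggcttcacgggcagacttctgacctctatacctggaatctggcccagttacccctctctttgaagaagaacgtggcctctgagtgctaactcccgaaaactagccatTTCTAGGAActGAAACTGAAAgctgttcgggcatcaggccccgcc
Irgm2 (chr11:58214727-58214976, plus strand): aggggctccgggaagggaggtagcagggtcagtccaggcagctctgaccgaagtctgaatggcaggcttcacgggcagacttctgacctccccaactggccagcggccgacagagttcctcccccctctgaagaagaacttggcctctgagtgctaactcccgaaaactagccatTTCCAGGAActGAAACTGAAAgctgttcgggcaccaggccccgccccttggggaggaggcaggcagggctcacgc
H2-Aa (chr17:34287824-34288073, minus strand): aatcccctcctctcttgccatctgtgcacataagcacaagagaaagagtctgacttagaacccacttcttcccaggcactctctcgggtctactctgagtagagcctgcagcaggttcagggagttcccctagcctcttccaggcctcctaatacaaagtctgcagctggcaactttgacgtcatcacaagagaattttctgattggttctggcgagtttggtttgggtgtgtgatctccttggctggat
The effector genes Ifit1 and Isg15 had 2 and 3 ISRE matches, those of Isg15 overlapping each other, and no GAS match. The neighbouring GTPase genes Igtp and Irgm2 each had 1 GAS match followed by 1 ISRE match, while H2-Aa had neither. Oasl2 also had neither match in its window. Over windows of 250 bases before to 50 bases after the start, the ISRE letters stood in 1131 of 32851 promoters (3.44%), and the GAS letters in 8.3%. Of the promoters found for each list, the ISRE letters were present in 15 of 34 for interferon effectors, 4 of 6 for oligoadenylate synthetases, 9 of 11 for interferon-gamma GTPases, 5 of 19 for MHC class I genes and 1 of 11 for MHC class II genes. A match is a description of letters, and no match says only that these letters are not in the window.

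Total counts lay between 28101826 and 36570108 in the SNI Gfp libraries and between 25477019 and 35601890 in the other 18. Levels are counts scaled to library size (CPM) with TMM factors, and the reads had been counted over whole gene spans without regard to strand, so a gene that overlaps another shares reads with it. Markers of medium spiny neurons were present in all 6 SNI Gfp libraries, with Drd1, a dopamine receptor gene of these cells, at 162, 208 and 204 CPM in libraries 3, 4 and 6, against 111, 274 and 151 CPM in libraries 1, 2 and 5. Mef2c, the gene carried by the other vector, measured 152, 214 and 153 CPM in libraries 3, 4 and 6, against 133, 221 and 135 CPM in libraries 1, 2 and 5. It reached 474 to 832 CPM in SNI Mef2c and 123 to 469 CPM in Sham Mef2c, and the Sham Mef2c range overlapped the 139 to 212 CPM of Sham Gfp.

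Each of libraries 3, 4 and 6 also held RNA of a different neighbouring tissue. Library 3 had 62.3 CPM of the smooth muscle myosin gene Myh11 and 66.8 CPM of the smooth muscle actin gene Acta2, against at most 11.6 and 7.97 CPM in the other 5 SNI Gfp libraries. Library 6 had 810 CPM of Ttr, the transthyretin gene of the choroid plexus, against at most 1.65 CPM in the other 5. Library 4 had 558 CPM of the cortical glutamate transporter gene Slc17a7, and library 2, on the low side of the split, had 68.8 CPM against at most 5.79 CPM in the rest. Of 21 measured smooth muscle, pericyte and fibroblast genes, 18 were above every Mef2c vector library in library 3, and of 17 measured choroid plexus and ependyma genes 12 were in library 6. Over all 23750 genes that count was 1992 in library 3 and 2931 in library 6. The part of these admixtures in the results below was not tested.

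Ifit1, an RNA-binding protein that blocks translation of foreign transcripts, measured 8.69, 14.0 and 31.1 CPM in SNI Gfp libraries 3, 4 and 6, against 2.14, 2.85 and 3.06 CPM in libraries 1, 2 and 5. Oasl2, an antiviral protein of the oligoadenylate synthetase family, measured 18.6, 68.0 and 132 CPM in libraries 3, 4 and 6, against 5.27, 4.84 and 7.08 CPM in libraries 1, 2 and 5. The split was made on interferon genes such as these 2, so the gap between its sides in such genes is no result. In both genes the libraries on either side of the gap are library 3 and library 5. The interferon index, the mean log2 CPM of both genes with a prior count of 2, was 3.67, 4.95 and 6.00 in libraries 3, 4 and 6, against 1.78, 1.92 and 2.24 in libraries 1, 2 and 5. Elsewhere the index lay between 4.75 and 7.12 in Sham Gfp, between 1.09 and 2.18 in SNI Mef2c and between 1.19 and 2.16 in Sham Mef2c. Libraries 4 and 6 thus lay inside the Sham Gfp range, library 3 lay between it and the Mef2c groups, libraries 1 and 2 lay within the range of the Mef2c groups and library 5 just above it.

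**Figure D1:**
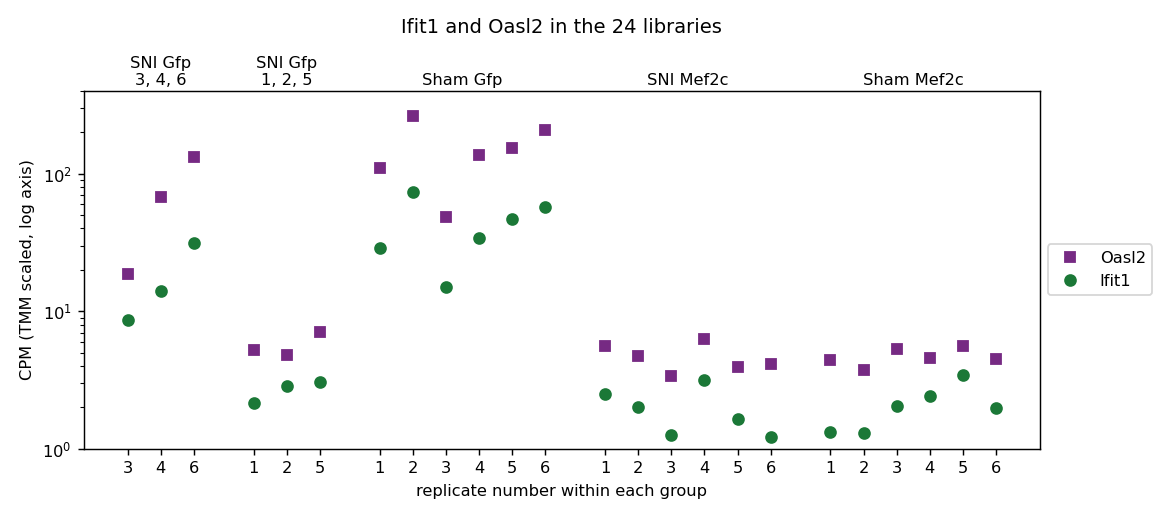
Ifit1 (circles) and Oasl2 (squares) in CPM on a log axis for each of the 24 libraries, ordered by group and replicate number. Libraries 4 and 6 of SNI Gfp had 68.0 and 132 CPM of Oasl2, within the Sham Gfp range of 48.5 to 264 CPM, whereas libraries 1, 2 and 5 had at most 7.08 CPM.

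A gene was called separated higher when its lowest level in libraries 3, 4 and 6 was above its highest level in libraries 1, 2 and 5, and separated lower in the reverse case. Of 23750 genes, 1732 were separated higher (7.29%) and 1077 separated lower (4.53%). Counts in the gene lists below are to be read beside these shares. The gap between the nearest libraries, each with 0.5 CPM added, was at least 2-fold for 32 of the higher genes (0.135%) and for 0 of the lower ones (0%). The 10 largest gaps among genes with an assigned name belonged to the class II genes H2-Aa, H2-Eb1, H2-Ab1, Cd74 and the class II pseudogene H2-Ea-ps, to Cybb, Fgl2, Serping1 and Cxcl16, and to the interferon-induced gene Ifi27l2a. These shares come from the libraries the split was made on and support nothing by themselves. Of the selected libraries, number 3 limited the counts most: without it, 3452 genes were separated higher and 2787 lower, and 500 had a gap of at least 2-fold. Without library 4 the counts were 2694, 2013 and 48, and without library 6 they were 2464, 1858 and 37. Of the low libraries, number 2, which held cortical RNA, limited them most, with 4232, 4164 and 55 without it.

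The interferon effectors, a list of 37 genes of the antiviral response, were all separated higher, 6 of them by at least 2-fold. Both counts include Ifit1. The split was made on interferon genes of this kind, so effector counts in these 6 libraries support nothing by themselves. Isg15, a ubiquitin-like protein attached to other proteins during infection, measured 4.90, 8.87 and 17.5 CPM in libraries 3, 4 and 6, against 0.890, 1.78 and 2.13 CPM in libraries 1, 2 and 5. Usp18, the protease that removes ISG15, measured 2.76, 5.73 and 10.4 CPM, against 0.997, 1.16 and 1.34 CPM in libraries 1, 2 and 5. Eif2ak2, the double-stranded RNA kinase PKR, measured 16.1, 27.0 and 43.3 CPM, against 13.5, 10.3 and 11.6 CPM in libraries 1, 2 and 5. In each of these genes library 6 was highest and library 3 lowest of the selected libraries. The membrane-associated effector gene Ifi27l2a measured 4.63, 5.57 and 13.8 CPM, against 0.961, 0.887 and 1.31 CPM in libraries 1, 2 and 5, with libraries 3 and 4 close together. Library 6 reached at least the lowest Sham Gfp level for all 37 effectors, library 4 for 31 and library 3 for 4, against 21614, 20318 and 20257 of all 23750 genes. Library 3 was above every one of the 12 Mef2c vector libraries for 34 of the 37 effectors, against 1, 2 and 6 effectors for libraries 1, 2 and 5. Over all 23750 genes that count was 1992 for library 3, against 2034, 1142 and 1007 for libraries 1, 2 and 5.

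Of 9 oligoadenylate synthetase genes, whose products make the messenger that activates RNase L, 7 were separated higher, Oasl2 among them. Oas1a measured 1.84, 6.00 and 10.1 CPM in libraries 3, 4 and 6, against 0.783, 0.275 and 0.722 CPM in libraries 1, 2 and 5. Oas1b measured 2.997, 7.45 and 16.4 CPM, against 1.32, 1.35 and 1.65 CPM in libraries 1, 2 and 5. The Oas1 genes are close copies of each other, so their individual levels are uncertain. Among sensors of foreign nucleic acid, 9 of 17 were separated higher. Ddx58, which encodes the RNA sensor RIG-I, measured 10.8, 15.8 and 24.2 CPM, against 5.55, 5.36 and 6.91 CPM in libraries 1, 2 and 5. Ifih1, which encodes the related sensor MDA5, measured 4.46, 13.8 and 18.5 CPM, against 2.10, 2.17 and 2.58 CPM in libraries 1, 2 and 5. The groups did not overlap for either sensor.

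Few reads came from the 9 interferon ligand genes looked up, among which Ifna2 and Ifna4 were the only interferon alpha genes. Of 9 ligand genes only Ifng passed the filter on low counts, with 0, 14 and 24 reads in libraries 3, 4 and 6 and 0 reads in each of libraries 1, 2 and 5. Its count of 0 in library 3 allows a level of up to 0.102 CPM. Ifnb1, the interferon beta gene, had 0, 1 and 1 reads in libraries 3, 4 and 6 and none in libraries 1, 2 and 5. Ifna2, an interferon alpha gene, had 0 reads in each of libraries 3, 4 and 6, against 2, 1 and 0 reads in libraries 1, 2 and 5. Over 6 libraries each, Ifng had 104 reads in Sham Gfp, 1 in SNI Mef2c and 1 in Sham Mef2c. Of the 19 signalling genes, 10 were separated higher. Irf1, a transcription factor of gamma-responsive genes, measured 6.61, 34.1 and 51.7 CPM in libraries 3, 4 and 6, against 4.66, 4.53 and 3.64 CPM in libraries 1, 2 and 5. Library 3 was far closer to the low libraries than to libraries 4 and 6 for this factor. The receptor gene Ifnar1 measured 62.5, 64.0 and 68.8 CPM, against 61.7, 64.7 and 63.0 CPM in libraries 1, 2 and 5, and its groups overlapped.

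All 15 measured interferon-gamma GTPases were separated higher, but none by at least 2-fold, because library 3 lay near the low libraries. Irgm1, an immunity-related GTPase that controls autophagy of pathogens, measured 15.9, 94.7 and 161 CPM in libraries 3, 4 and 6, against 7.65, 8.23 and 9.97 CPM in libraries 1, 2 and 5. Irgm2, a related GTPase whose promoter is printed above, measured 6.54, 94.8 and 160 CPM, against 3.56, 3.58 and 4.74 CPM in libraries 1, 2 and 5. The counted span of Irgm2 covers most of Igtp, so it shares reads with that gene. In libraries 3, 4 and 6 Irgm2 had 192, 3474 and 5727 reads, and Igtp had 72, 1769 and 2913. Gbp3, a guanylate-binding protein, measured 7.49, 37.6 and 62.9 CPM, against 3.81, 4.80 and 4.503 CPM in libraries 1, 2 and 5. Ifi47, another of these GTPases, measured 0.920, 14.3 and 21.6 CPM, against 0.498, 0.490 and 0.481 CPM in libraries 1, 2 and 5, and it shares reads with an overlapping gene, as do Gbp4, Gbp9 and Igtp. Library 6 over library 3 gave a median log2 ratio of 3.60 over the GTPases, against 1.78 over the effectors and -0.01 over all genes. Libraries 4 and 6 were closer to each other, with a median log2 ratio of 0.70 of library 6 over library 4.

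**Figure D2:**
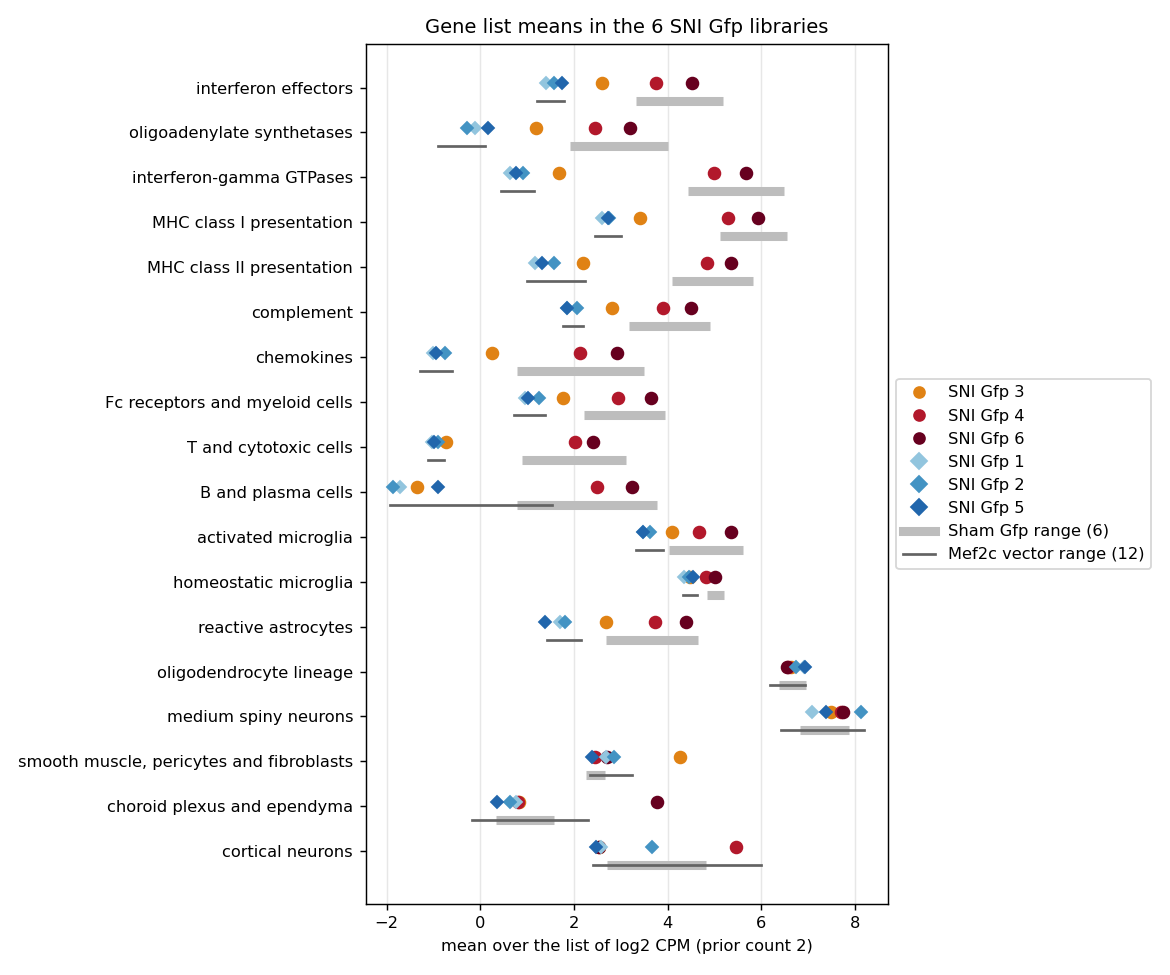
Mean log2 CPM of each gene list in the 6 SNI Gfp libraries (circles, libraries 3, 4 and 6; diamonds, libraries 1, 2 and 5), with the range of the 6 Sham Gfp libraries (thick grey bar) and of the 12 Mef2c vector libraries (thin line). For the interferon-gamma GTPases library 3 stood at 1.68, near the 0.63 to 0.91 of libraries 1, 2 and 5, while libraries 4 and 6 stood at 4.99 and 5.68, inside the Sham Gfp range of 4.45 to 6.49.

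Antigen presentation genes showed the same order of libraries. Of 20 MHC class I presentation genes, 18 were separated higher, 1 by at least 2-fold. Tap1, a subunit of the peptide transporter into the endoplasmic reticulum, measured 7.43, 54.8 and 97.5 CPM in libraries 3, 4 and 6, against 3.42, 3.70 and 3.71 CPM in libraries 1, 2 and 5. H2-T23, a non-classical class I gene that shares reads with an overlapping transcript, measured 5.04, 30.1 and 49.1 CPM, against 2.10, 2.82 and 2.58 CPM in libraries 1, 2 and 5. In both genes library 3 lay above the low libraries but far under libraries 4 and 6.

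Of 14 MHC class II presentation genes, which serve antigen display to CD4 T cells, 7 were separated higher and 4 of these by at least 2-fold. Cd74, the invariant chain, measured 24.01, 532 and 761 CPM in libraries 3, 4 and 6, against 3.52, 7.16 and 4.26 CPM in libraries 1, 2 and 5. H2-Aa, a class II alpha chain, measured 6.03, 120 and 200 CPM, against 0.534, 1.32 and 0.378 CPM in libraries 1, 2 and 5. The gap between the nearest libraries was 3.20-fold for Cd74 and 3.60-fold for H2-Aa, which was the largest gap of any named gene. Cd74 was, like Ifit1 and Oasl2, a marker of the interferon state given with the split, so its gap is no result. H2-Eb1, a class II beta chain, measured 4.05, 129 and 218 CPM, against 0.392, 0.949 and 0.378 CPM in libraries 1, 2 and 5. Ciita, the class II coactivator, measured 4.26, 15.8 and 20.6 CPM, against 3.88, 6.40 and 4.57 CPM in libraries 1, 2 and 5. In library 3 the class II chains were thus above the low libraries while Ciita, which shares reads with an overlapping gene, lay within their range. Cd86, a costimulatory receptor of antigen-presenting cells, also lay within the low range in library 3, at 3.30, 17.5 and 21.8 CPM in libraries 3, 4 and 6, against 2.60, 3.18 and 3.47 CPM in libraries 1, 2 and 5.

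Of 20 chemokines, 13 were separated higher, 3 by at least 2-fold. Cxcl16, a membrane-bound ligand for activated T cells, measured 4.36, 12.7 and 24.5 CPM in libraries 3, 4 and 6, against 1.21, 1.22 and 0.928 CPM in libraries 1, 2 and 5. Cxcl10, an interferon-induced attractant of T cells that shares reads with an overlapping gene, measured 1.12, 7.42 and 12.2 CPM, against 0.107, 0.184 and 0.0344 CPM in libraries 1, 2 and 5. The low libraries held almost no Cxcl10 RNA. Of 23 cytokine and inflammasome genes, 14 were separated higher. Gsdmd, which encodes the pore protein gasdermin D, measured 5.48, 9.42 and 14.2 CPM, against 2.35, 3.27 and 2.85 CPM in libraries 1, 2 and 5.

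Among genes of complement and phagocytes, library 3 was near library 4 for Serping1 and above it for Lyz2. Serping1, the inhibitor of complement C1, measured 27.2, 31.2 and 44.0 CPM in libraries 3, 4 and 6, against 4.81, 9.27 and 3.37 CPM in libraries 1, 2 and 5. Lyz2, the lysozyme of macrophages and activated microglia, measured 30.9, 22.03 and 63.7 CPM, against 4.98, 8.05 and 5.05 CPM in libraries 1, 2 and 5, and its groups did not overlap. Cybb, the NADPH oxidase subunit of phagocytes, measured 6.68, 19.1 and 33.0 CPM, against 0.783, 1.50 and 0.825 CPM in libraries 1, 2 and 5. Fgl2, a prothrombinase of macrophages and T cells that shares reads with an overlapping gene, measured 7.63, 11.2 and 18.2 CPM, against 1.71, 2.33 and 1.13 CPM in libraries 1, 2 and 5. Over the complement list, 15 of 19 genes were separated higher, 3 by at least 2-fold. C1qb, a chain of the recognition molecule C1q made by microglia, measured 28.6, 87.0 and 126 CPM, against 20.5, 23.2 and 24.5 CPM in libraries 1, 2 and 5. C3, the central complement component, measured 4.46, 58.9 and 119 CPM, against 1.78, 1.81 and 1.82 CPM in libraries 1, 2 and 5.

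Of 18 homeostatic microglia genes, 2 were separated higher, against 7.29% of all genes. That count is near the share over all genes and is no result about microglia. P2ry12, a purinergic receptor of resting microglia whose span overlaps another gene, measured 28.2, 30.8 and 31.4 CPM in libraries 3, 4 and 6, against 30.7, 30.7 and 32.7 CPM in libraries 1, 2 and 5. Tmem119, a microglial membrane protein, measured 18.7, 31.0 and 39.4 CPM, against 17.7, 18.4 and 19.7 CPM in libraries 1, 2 and 5. Csf1r, the receptor that keeps microglia alive, measured 97.1, 176 and 210 CPM, against 89.8, 103 and 108 CPM in libraries 1, 2 and 5. For Tmem119 and Csf1r library 3 lay among the low libraries and libraries 4 and 6 above them. Of 18 activated microglia genes 11 were separated higher, 3 by at least 2-fold, and of 20 Fc receptor and myeloid genes 12 were. In bulk RNA more cells of a type and more RNA per cell cannot be told apart.

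Lymphocyte RNA divided the selected libraries. Cd3g, which encodes the gamma chain of CD3, had 0, 132 and 196 reads in libraries 3, 4 and 6, or 0, 3.60 and 5.49 CPM, and 0 reads in each of libraries 1, 2 and 5. Cd8a, the coreceptor of cytotoxic T cells, measured 0.102, 3.60 and 6.14 CPM, against 0 CPM in each of libraries 1, 2 and 5. A count of 0 allows up to 0.107, 0.0918 and 0.103 CPM in libraries 1, 2 and 5, so library 3, with 3 reads of Cd8a, did not stand apart from them. Igkc, the immunoglobulin kappa constant region, measured 0.273, 88.4 and 243 CPM, against 0.142, 0.0306 and 1.62 CPM in libraries 1, 2 and 5, and it overlaps another transcript. Jchain, which joins secreted antibodies, measured 1.23, 23.6 and 157 CPM, against 0.748, 0.949 and 1.41 CPM in libraries 1, 2 and 5. By these genes libraries 4 and 6 carried T cell and plasma cell RNA and library 3 almost none. Of the other T cell markers, Cd3e measured 0.102, 2.02 and 3.445 CPM, against 0, 0.0612 and 0.0344 CPM in libraries 1, 2 and 5. Cd4 did not follow, at 14.6, 40.2 and 23.6 CPM, against 17.9, 35.6 and 16.6 CPM in libraries 1, 2 and 5. Of the lists, 8 of 29 T and cytotoxic cell genes and 4 of 18 B and plasma cell genes were separated higher. Libraries 4 and 6 each reached at least the lowest Sham Gfp level for 29 of 29 T and cytotoxic cell genes, and library 3 for 5; of all 23750 genes, 20318 and 21614 did so in libraries 4 and 6 and 20257 in library 3.

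A count over all genes shows the same division, by a criterion set after the values were seen. There were 500 genes at least 2-fold higher in both library 4 and library 6 than in the highest of libraries 1, 2 and 5, and in library 3 the same threshold was met by 32, an increase of less than 2-fold by 321 and no increase by 147. Among interferon effectors 32 met the threshold in libraries 4 and 6, and library 3 was not above the low libraries in 0 of them. The figure for interferon-gamma GTPases was 0 of 15, for MHC class II genes 5 of 12, for T and cytotoxic cell genes 13 of 20 and for B and plasma cell genes 8 of 11.

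**Figure D3:**
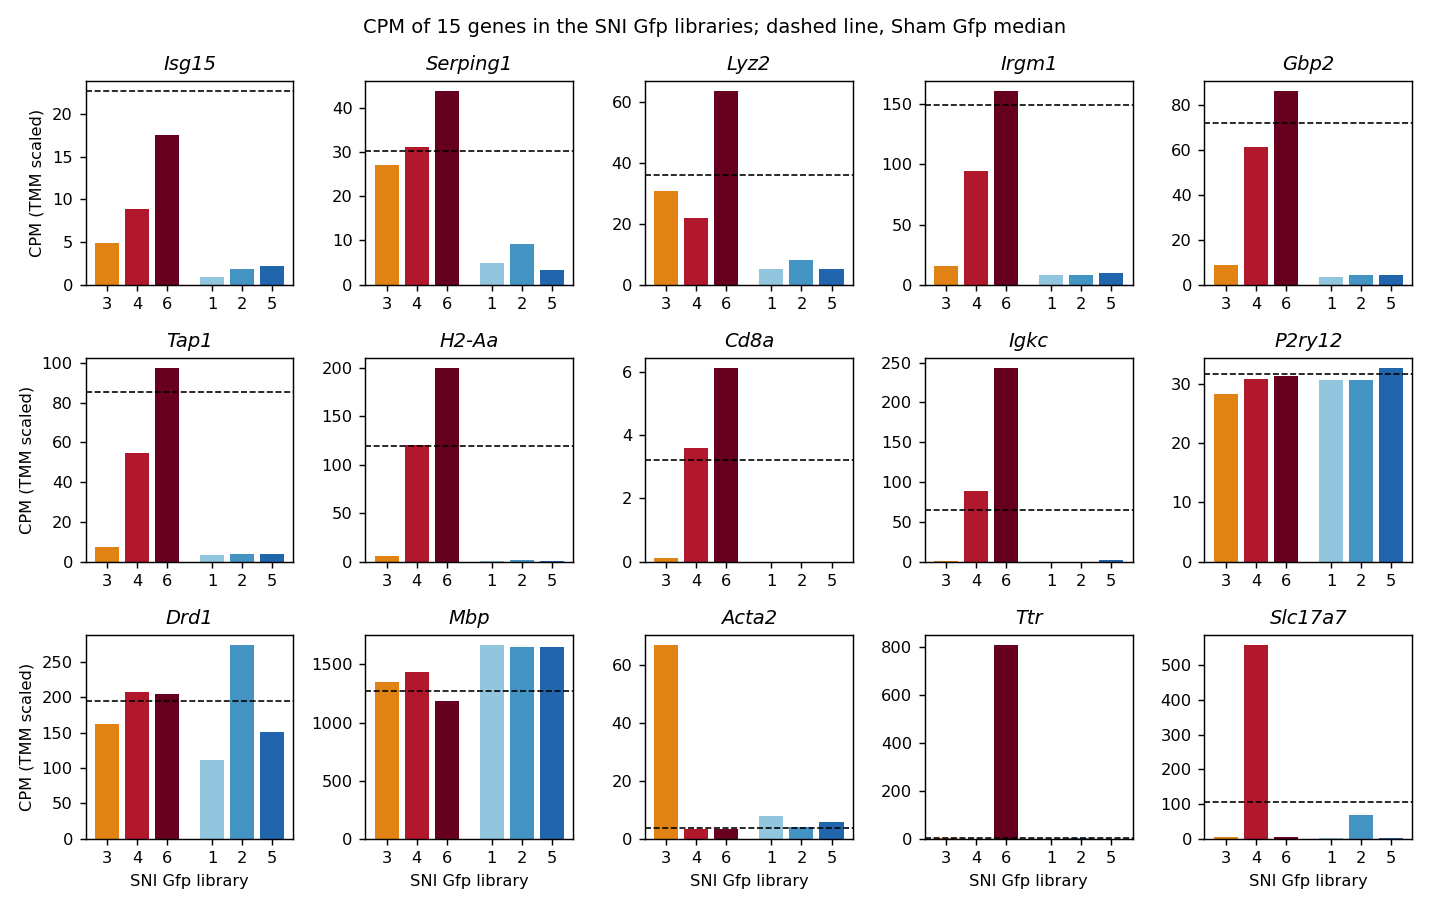
Levels of 15 genes in CPM (linear axes from 0) in SNI Gfp libraries 3, 4 and 6 (orange to dark red) and 1, 2 and 5 (blues), with the Sham Gfp median as a dashed line. Serping1 and Lyz2 are high in library 3, whereas Tap1, H2-Aa, Cd8a and Igkc are far higher in libraries 4 and 6 than in library 3. Acta2, Ttr and Slc17a7 peak in libraries 3, 6 and 4.

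Reactive astrocyte genes were mostly separated higher, 15 of 18, of which 2 by at least 2-fold. Vim, an intermediate filament protein of reactive astrocytes and vessel walls, measured 59.5, 79.9 and 141 CPM in libraries 3, 4 and 6, against 27.5, 28.5 and 17.3 CPM in libraries 1, 2 and 5. Gfap, the astrocyte filament protein, measured 130, 331 and 422 CPM, against 108, 145 and 44.6 CPM in libraries 1, 2 and 5, and library 3 lay within the low range. Of 14 homeostatic astrocyte genes, 0 were separated higher and 3 lower, against 7.29% and 4.53% of all genes. Gja1, the main gap junction protein of astrocytes, measured 212, 195 and 185 CPM, against 201, 210 and 197 CPM in libraries 1, 2 and 5, and the groups overlapped.

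Genes lower in the selected libraries differed by small factors. Of 16 oligodendrocyte lineage genes, 12 were separated lower, against 4.53% of all genes. Mbp, the myelin basic protein, measured 1352, 1432 and 1188 CPM in libraries 3, 4 and 6, against 1668, 1653 and 1648 CPM in libraries 1, 2 and 5. Fa2h, which makes the hydroxylated lipids of myelin, measured 33.6, 34.0 and 28.2 CPM, against 42.4, 41.7 and 48.5 CPM in libraries 1, 2 and 5. Mbp lay between 1006 and 1665 CPM in Sham Gfp, between 994 and 1884 CPM in SNI Mef2c and between 1059 and 1746 CPM in Sham Mef2c, so both sides of the split were within the ranges of both Mef2c groups. The largest gap on the lower side belonged to Gpr139, an orphan receptor, at 3.41, 1.39 and 2.72 CPM, against 6.37, 5.32 and 5.499 CPM in libraries 1, 2 and 5. Sec14l5, a lipid-transfer family member, was nearly constant on each side, at 28.3, 28.9 and 29.6 CPM, against 41.4, 44.9 and 39.9 CPM in libraries 1, 2 and 5. Of 20 medium spiny neuron genes, 0 were separated in either direction, against 7.29% higher and 4.53% lower over all genes. In a list of this size that count is near those shares and is no result about these neurons. The number separated higher was 18 of 30 for ribosomal protein genes, where the share over all genes was 7.29%. Rpl3 measured 137, 137 and 138 CPM, against 128, 130 and 134 CPM in libraries 1, 2 and 5.

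Whether genes moved with the interferon index was tested in the 18 libraries of Sham Gfp, SNI Mef2c and Sham Mef2c. The fit gave each gene 1 slope within groups, the log2 change of the gene per log2 unit of the index, so that a slope of 1 means doubling when the index genes double. Of 23294 genes tested, 345 had a positive slope past the threshold (1.48%) and 2 a negative one (0.00859%), by edgeR's quasi-likelihood test with Benjamini-Hochberg adjustment over all genes and a threshold of 0.05. The 2 negative ones, Gm2004 and Gm9816, are predicted genes. Of the 345, 69 overlap a gene with more counts and 42 are predicted genes. The calls rested on Sham Gfp libraries 2 and 3, the highest and lowest of the index in the group with the widest range: 102 genes had a positive slope without library 2, 25 without library 3, and 0 without both, where 1838 genes had an unadjusted p below 0.05. All 345 slopes kept their sign without these 2 libraries, with a median of 0.39 in place of 0.62. These 345 genes were selected on their slopes in the same 18 libraries, so the sign of their slopes within each group is a description and no independent support. Within Sham Gfp alone 345 of 345 slopes were positive, within SNI Mef2c alone 243 of 267, against 10279 of 20838 over all genes there, and within Sham Mef2c alone 218 of 263, against 10419 of 20972 over all genes.

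The effector genes rose with the index in these libraries. Among effectors, 29 of 36 tested had a positive slope past the threshold, with a median slope of 0.64 over the list against -0.01 over all genes; 5 remained past it without Sham Gfp library 3. Isg15 rose by 0.88 ± 0.11 (SE, 18 libraries) per unit of index (edgeR adjusted p = 0.000294), with a positive slope in 3 of 3 groups. Eif2ak2 rose by 0.51 ± 0.06 (edgeR adjusted p = 0.000258), and the ubiquitin ligase gene Rnf213 by 0.63 ± 0.07 (edgeR adjusted p = 0.000258). Of the oligoadenylate synthetase genes other than Oasl2, 6 of 8 passed. Oas1a, with the smallest p, rose by 0.93 ± 0.09 (edgeR adjusted p = 0.000138). Irf7, the factor that amplifies type I interferon production and shares reads with Phrf1, rose by 1.09 ± 0.18 (edgeR adjusted p = 0.00365). Jak1, the receptor kinase, had a slope of -0.01 ± 0.04 (edgeR adjusted p = 0.998).

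Of the GTPases 14 of 15 passed, with a median slope of 0.71, and 6 passed without Sham Gfp library 3. Irgm1 rose by 0.58 ± 0.06 (edgeR adjusted p = 0.000138), with a positive slope in 3 of 3 groups, and Gbp3 by 0.66 ± 0.07 (edgeR adjusted p = 0.000138). Of MHC class I presentation genes 11 of 20 passed, led by the peptide transporter subunits, with Tap2 at 0.54 ± 0.08 (edgeR adjusted p = 0.00101) and Tap1 at 0.67 ± 0.10 (edgeR adjusted p = 0.00176). Without Sham Gfp library 3, 0 of the class I and 0 of the class II genes passed.

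Of the MHC class II genes 4 of 14 passed, and the chains with the widest gaps in the SNI Gfp libraries were not among them. H2-Aa had a slope of 0.72 ± 0.26 (edgeR adjusted p = 0.314) and Cd74 of 0.52 ± 0.33 (edgeR adjusted p = 0.865), each positive in 3 of 3 groups. Those that passed were Cd86 at 0.50 ± 0.10 (edgeR adjusted p = 0.0165), H2-Oa, which overlaps another gene, the lysosomal thiol reductase gene Ifi30 and the protease gene Ctss. A p that misses the threshold does not show that a gene stayed level.

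Other immune groups passed in part. Of the chemokines 5 of 17 passed, including Cxcl10 at 1.64 ± 0.24 (edgeR adjusted p = 0.00182), and Cxcl16 at 0.97 ± 0.20 (edgeR adjusted p = 0.0242). Of the complement genes 7 of 19 passed, including Serping1 at 0.95 ± 0.20 (edgeR adjusted p = 0.0215). C3 had a slope of 0.85 ± 0.57 (edgeR adjusted p = 0.901). Of 27 T and cytotoxic cell genes 7 passed, among them the receptor chain Cd3e at 1.12 ± 0.25 (edgeR adjusted p = 0.0355), and 0 of 15 B and plasma cell genes did, with a median slope of -0.30. Cd3e had 478 reads in all of Sham Gfp, 3 in SNI Mef2c and 3 in Sham Mef2c, and Cxcl10 had 2898, 9 and 20. For both genes only 1 group, Sham Gfp, passed the filter on low counts by itself, so their slopes rest on that group. Of the reactive astrocyte genes 8 of 18 passed, including Gfap at 0.82 ± 0.19 (edgeR adjusted p = 0.0413). Without Sham Gfp library 3 none of these chemokine, complement, T cell or astrocyte genes passed.

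In several lists no gene passed. Over all tested genes 1.48% had a positive slope past the threshold and 0.00859% a negative one. A count of 0 in lists of this size is near those shares and is no result about the lists. The count was 0 of 16 for oligodendrocyte lineage genes, with a median slope of -0.04, and Mbp had a slope of -0.04 ± 0.12 (edgeR adjusted p = 0.998). It was 0 of 30 for ribosomal protein genes and 0 of 18 for homeostatic microglia genes, and 0 of 20 for medium spiny neuron genes. The lists of smooth muscle, choroid plexus and cortical genes also had 0 genes past the threshold, of 21, 17 and 16. Mef2c itself had a slope of -0.12 ± 0.22 (edgeR adjusted p = 0.998).

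**Figure D4:**
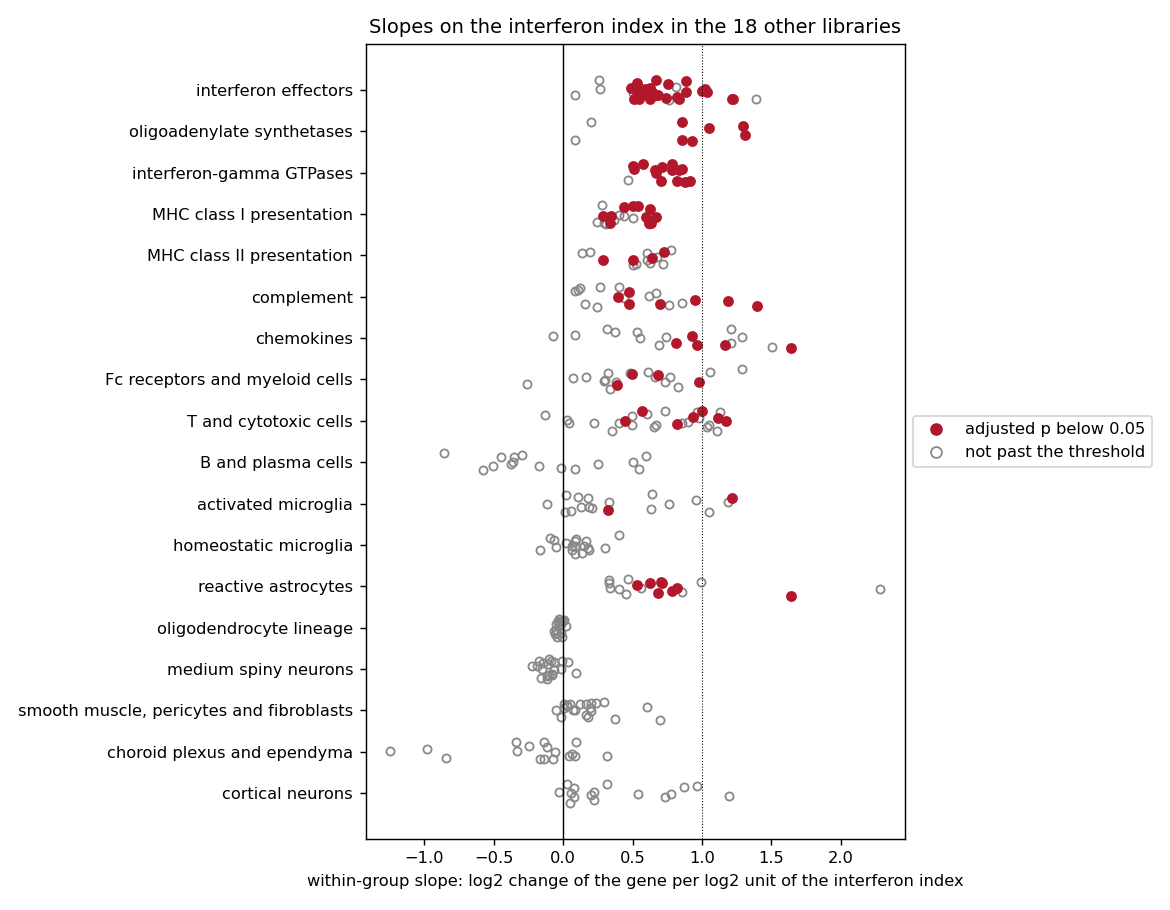
Slope of each list member on the interferon index in the 18 libraries of Sham Gfp, SNI Mef2c and Sham Mef2c, with filled points for an adjusted p below 0.05 and open points otherwise; vertical lines mark slopes of 0 and 1. Effectors and GTPases are nearly all filled, with 29 of 36 and 14 of 15, whereas B and plasma cell, oligodendrocyte and neuronal genes have none. Over all tested genes 1.48% had a positive slope past the threshold, so a list with none is near that share.

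The genes that rose with the index outside SNI Gfp were mostly separated higher within it. The index genes Ifit1 and Oasl2 are of the kind that made the split, so genes that follow them were favoured to be separated. The overlap below is therefore a description and no independent support. Of the 345, 276 (80%) were separated higher in libraries 3, 4 and 6 and 0 were separated lower. Of all 23294 tested genes, 1674 were separated higher and 1054 lower. Seen from the other side, 276 of 1674 separated higher genes that were tested (16.5%) had a positive slope. So had 14 of the 30 with a gap of at least 2-fold (46.7%), against 1.48% of all tested genes. The median slope was 0.17 for genes separated higher, 0.74 for those with a gap of at least 2-fold and -0.04 for genes separated lower, against -0.01 for all tested genes. Without Sham Gfp libraries 2 and 3 these medians were 0.09, 0.46 and 0.04, against 0.01 for all tested genes, so that of the genes separated lower changed sign. The ISRE letters stood in 66 of 329 promoters of genes with a positive slope (20.1%) and in 11 of 802 promoters of genes separated lower (1.37%), against 3.44% of all promoters.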

How the data were processed

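Poly(A) RNA libraries of 24 samples were made with a stranded Illumina kit, per the labels' protocols. The authors deposited raw counts per gene, made with featureCounts on mm10 per the submitters' processing notes, and a table of FPKM. The aligner is not given in the sources used here. Every deposited FPKM value above 0 (100%) matched its count over library total and gene span within a relative tolerance of 1e-06, for 42625 of 42625 genes, and FPKM was used no further. For genes with at least 1000 counts inside another gene, the outer gene never had fewer (866 of 866 same-strand and 1296 of 1296 opposite-strand pairs), so counting took in whole spans on both strands. Of 55401 IDs, 55141 matched GENCODE M21 without the version, and 11852 had no count.

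Counts were scaled by TMM in edgeR 4.0.16 (R 4.3.3) and filtered by filterByExpr. Slopes came from glmQLFit (robust) and glmQLFTest with 1 intercept per group and the interferon index, leaving 14 residual degrees of freedom, two-sided; Ifit1 and Oasl2 were left out of the counts of slopes but not of separated genes. Scripts were tested on simulated data. No library was a copy of another (60 pairs within groups, chi-square per degree of freedom at least 3.22). Floors of 3 counts cover counting error only. Alternatives were limma 3.58.1, DESeq2 1.42.0, other scalings, filters, indices, covariates and left-out libraries. The libraries, the split, the index and the 35 gene lists were chosen with earlier results of these data known. The naming rule took Ifit1, Oasl2, Cd74 and Mef2c, the 10 largest gaps in each direction with at least 1 CPM, the 10 smallest slope p-values that were positive, up to 5 members of each list by slope p and the markers that define a cell type. Lyz2, C3, Vim, Gfap, Irgm2, Igtp, Rpl3, Jak1, Ifnar1, Ifng, Ifnb1, Ifna2, Gm2004 and Gm9816 fall outside this rule and were chosen after their values were seen.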

Additional observations from a re-analysis of the deposited data

Results flagged for a closer look

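Among 36 list and index values in the 6 SNI Gfp libraries, 2 libraries stood apart from the other 5 by Dixon's criterion at 95%, which chance meets about 1 time in 20. Finding 2 among 36 is near that rate, so the number of flags is no result. The smooth muscle, pericyte and fibroblast list had a mean log2 CPM of 4.264 in library 3. The choroid plexus and ependyma list had a mean log2 CPM of 3.78 in library 6. Neither list had a member with a slope past the threshold on the interferon index in the other groups, where 1.48% of all tested genes had a positive one. The part of this RNA in the separation of libraries 3, 4 and 6 was not tested.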

How the results depend on the processing

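The 345 positive and 2 negative slopes depended on the libraries more than on the tool. DESeq2 gave 618 and 8, limma-voom 570 and 5, an index of Ifit1 alone 150 and 0, an index of the effector list 648 and 17, and covariates for smooth muscle and choroid plexus genes 198 and 1. Other scalings or a filter of 1 CPM gave 353 to 444 positive and 1 negative. A covariate for cortical genes gave 391 positive and 3 negative slopes. Leaving out 1 library gave 25 to 460 positive and 0 to 4 negative slopes, the lowest without Sham Gfp library 3. Sham Gfp alone gave 188 and 0, and SNI Mef2c alone, Sham Mef2c alone and the fit without Sham Gfp libraries 2 and 3 gave 0 and 0, with 1161, 512 and 1838 genes at an unadjusted p below 0.05 in edgeR. With 6 libraries in a group and a narrow range of the index in the Mef2c groups, the fits of 1 group alone say nothing about stability. The fit without Sham Gfp libraries 2 and 3 kept all 3 groups, and no call held without those libraries. With a replicate block 73 positive and 0 negative slopes passed, but the numbers did not pair the libraries: correlations of deviations between same-numbered libraries ran from -0.369 to 0.228, and 2 of 18 libraries correlated best with their own number. Slopes turned negative in SNI Mef2c alone for Cybb (-0.022), Cxcl16 (-0.227), Cst7 (-0.023), Lck (-0.072), Vcam1 (-0.211) and Fas (-0.38), and in Sham Mef2c alone for Ifi27l2a (-0.209) and Gbp2 (-0.027); the cause was not tested. In SNI Gfp, leaving out 1 library gave 2362 to 4232 genes separated higher, 1591 to 4164 lower, 35 to 500 with a gap of at least 2-fold higher and 0 to 3 lower, since fewer libraries must be separated. Adding 0.1 CPM in place of 0.5 gave 71 genes with a gap of at least 2-fold.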

Other observations

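Outside SNI Gfp, immunoglobulin RNA was high in the group with high interferon genes, at 37.5 to 371 CPM of Igkc in the 6 Sham Gfp libraries, but it did not keep the order of the interferon genes within groups, by values looked up after the main results were known. Sham Mef2c library 6 had 113 CPM of Igkc, the kappa constant region, and 32.1 CPM of Jchain, against at most 3.02 CPM of Igkc and 1.61 CPM of Jchain in the other 11 Mef2c vector libraries. Its interferon genes were among theirs, with 1.98 CPM of Ifit1 and 4.504 CPM of Oasl2, and it had 27.2 CPM of Cd74, the highest of the 12. Among the Sham Gfp libraries Igkc was highest in library 1, at 371 CPM, whereas Ifit1 and Oasl2 were highest in library 2, at 73.6 and 264 CPM. Cd3g, the CD3 gamma chain of T cells, was highest in library 2 as well, at 7.92 CPM.

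Immediate early genes, which neurons switch on with activity, had a mean log2 CPM of 3.80, 4.98 and 3.90 in SNI Gfp libraries 3, 4 and 6, against 3.32, 4.14 and 4.12 in libraries 1, 2 and 5. Fos, chosen after its values were seen, measured 5.52, 20.9 and 5.80 CPM in libraries 3, 4 and 6, against 2.71, 6.82 and 13.1 CPM in libraries 1, 2 and 5. Of the 17 measured genes of this list, 11 were above every Mef2c vector library in library 4, against 1 in library 3 and 0 in library 6; over all 23750 genes the counts were 2500, 1992 and 2931. Library 4 is also the library with cortical RNA, whose part in these values was not tested.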
